A study of Mus musculus with 6 samples.

Results

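Retinoids are derivatives of vitamin A that pass through a chain of carriers, enzymes and receptors before they act on genes. Retinol travels in plasma bound to a carrier protein, is oxidised in cells to retinal and then to retinoic acid, and retinoic acid is handed on by small cytosolic binding proteins to nuclear receptors of the RAR family, which pair with RXR receptors on DNA. In fibroblasts retinoic acid is known as a regulator of matrix and matrix protease genes, and some genes of the chain, Rarb and Cyp26a1 among them, are themselves textbook targets of the RARs. The genes described here were the 9 of this chain chosen by name among the 49548 genes of the deposited table: the retinoic acid binding proteins Crabp1 and Crabp2, the plasma retinol carrier Rbp4, the retinal dehydrogenases Aldh1a1, Aldh1a2 and Aldh1a3, the receptors Rarb and Rarg, and the retinol uptake receptor Stra6. They were chosen with the normalised counts of the same 6 libraries known, Crabp2 in the first place for its difference between the groups, so their values are given as a description.

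The libraries came from primary synovial fibroblasts (SFs) of hTNFtg mice, which carry a human TNF transgene and develop a chronic polyarthritis. Both groups carried the transgene, and no library of cells without it was compared here. Per the study's methods, the mice were 8 weeks old and on a CBA C57BL/6J background, the SFs were taken from their ankle joints, CD45+ cells were removed at the first passage, and the cultures were biological replicates. The untreated group (n = 3) received no drug per the labels, whereas the methods speak of vehicle. The amisulpride group (n = 3) received 500 μM amisulpride, an antipsychotic that blocks dopamine receptors, for 48 hours. RNA was read from transcript 3′ ends (QuantSeq), and every level below is a normalised count, that is, a read count per gene scaled by the authors, taken here to be by 1 factor per library. The comparison asks what amisulpride does to the expression profile of arthritic SFs.

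The libraries held about 2.52 to 4.71 M reads each, as estimated from the size of the steps between low values. Amisulpride replicate 3 was the shallowest and stood apart from the rest, with a score of 73.9 on the first principal component (37.1% of the variance) against -38.2 to 10.4 in the others. Values without it are given beside the results they change. A count of 3 reads, the smallest taken to show a gene as detected, corresponded to a normalised count of 2.5 to 5.37 depending on the library, a limit that covers counting error only. All 13 fibroblast markers were at 10 or more in every library. Myeloid markers were also present, with summed levels of 2348 to 4003 in untreated and 2178 to 4048 in amisulpride SFs, and Cd14 (log2 difference -1.74) and Csf1r (-1.01) were lower after amisulpride by the study's thresholds (a log2 difference of at least 1 and an unadjusted p under 0.05), which Csf1r missed without any 1 untreated library and without amisulpride replicate 1 or 2. Others of the 10 myeloid markers, Adgre1, Aif1 and Cd68, had log2 differences of 0.83, 0.70 and 0.31, short of those thresholds. Adgre1 passed them without untreated replicate 1 or amisulpride replicate 3 and with library weights. None of the 6 endothelial markers passed the filter on low values (a level of at least 10 in at least 3 libraries). The part of these cells in the retinoid results was not tested, and in bulk RNA fewer cells of a type and less RNA per cell cannot be told apart.

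Receptors of the RAR family bind direct repeats of a 6-base half-site, and the stretches upstream of the member genes were read for such repeats. RefSeq promoter windows (GRCm38.p6, the build of the files) were at hand for 7 of the 9 members, Crabp2 and Aldh1a3 being the exceptions, and for 70 of 97 other listed genes of retinoid biology and of the members' protein families. The half-site known for these receptors was searched on both strands as a direct repeat after a spacer of 1 base (DR1), 2 bases (DR2) or 5 bases (DR5), so that the 3 motifs share their letters and differ in the spacer. Among the members, Rarb held a DR5 that began 53 bases before the start of the gene, and no other window of a member held any of the 3 motifs. Among the other genes, Cyp26a1, a retinoic acid hydroxylase, held a DR5 that read on the opposite strand, and Bco1, a carotene-cleaving enzyme, held a DR1. A DR5 was present in 32 of all 32851 windows (0.0974%), a DR2 in 88 (0.268%) and a DR1 in 73 (0.222%). The 250 bases upstream of Rarb (chr14:16575477-16575726, minus strand) and Cyp26a1 (chr19:37697558-37697807, plus strand) are shown for their DR5, in capitals. Those of Crabp1 (chr9:54764498-54764747, plus strand) and Aldh1a1 (chr19:20601718-20601967, plus strand), the members with a window whose levels did not overlap between the groups, are shown beside them and hold none of the 3 motifs.
Rarb: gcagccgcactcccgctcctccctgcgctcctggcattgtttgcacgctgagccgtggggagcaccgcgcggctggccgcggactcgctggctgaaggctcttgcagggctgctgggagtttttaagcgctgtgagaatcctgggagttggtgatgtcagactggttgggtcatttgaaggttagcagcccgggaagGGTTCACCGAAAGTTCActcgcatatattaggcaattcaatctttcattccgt
Cyp26a1: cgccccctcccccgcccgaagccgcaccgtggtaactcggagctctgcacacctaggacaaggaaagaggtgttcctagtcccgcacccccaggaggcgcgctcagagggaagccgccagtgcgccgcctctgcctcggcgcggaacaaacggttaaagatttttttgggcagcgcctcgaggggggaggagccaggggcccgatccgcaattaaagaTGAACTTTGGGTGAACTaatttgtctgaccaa
Crabp1: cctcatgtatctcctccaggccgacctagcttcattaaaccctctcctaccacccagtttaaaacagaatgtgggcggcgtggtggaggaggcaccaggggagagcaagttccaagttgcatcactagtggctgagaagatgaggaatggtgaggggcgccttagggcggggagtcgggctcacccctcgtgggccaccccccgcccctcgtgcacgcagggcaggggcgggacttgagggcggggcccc
Aldh1a1: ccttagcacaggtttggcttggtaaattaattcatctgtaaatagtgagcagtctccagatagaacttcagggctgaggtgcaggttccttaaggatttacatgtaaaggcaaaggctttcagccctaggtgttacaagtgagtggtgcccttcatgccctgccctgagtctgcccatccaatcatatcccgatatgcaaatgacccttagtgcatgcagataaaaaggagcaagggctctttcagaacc
A match of letters in these windows is a description and says nothing about binding.

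Of the 9 members, 7 passed the filter on low values and entered the fit across all 12614 genes that passed it. Rarb and Stra6 did not. Of the 7, 3 had groups that did not overlap, with Crabp2 and Aldh1a1 higher and Crabp1 lower in amisulpride SFs. The same held for 16.5% of all genes tested (7.80% higher and 8.66% lower), and nothing is read from the members' share, since they were chosen with this contrast known. No p-value of a member is given, for the same reason.

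**Figure D1:**
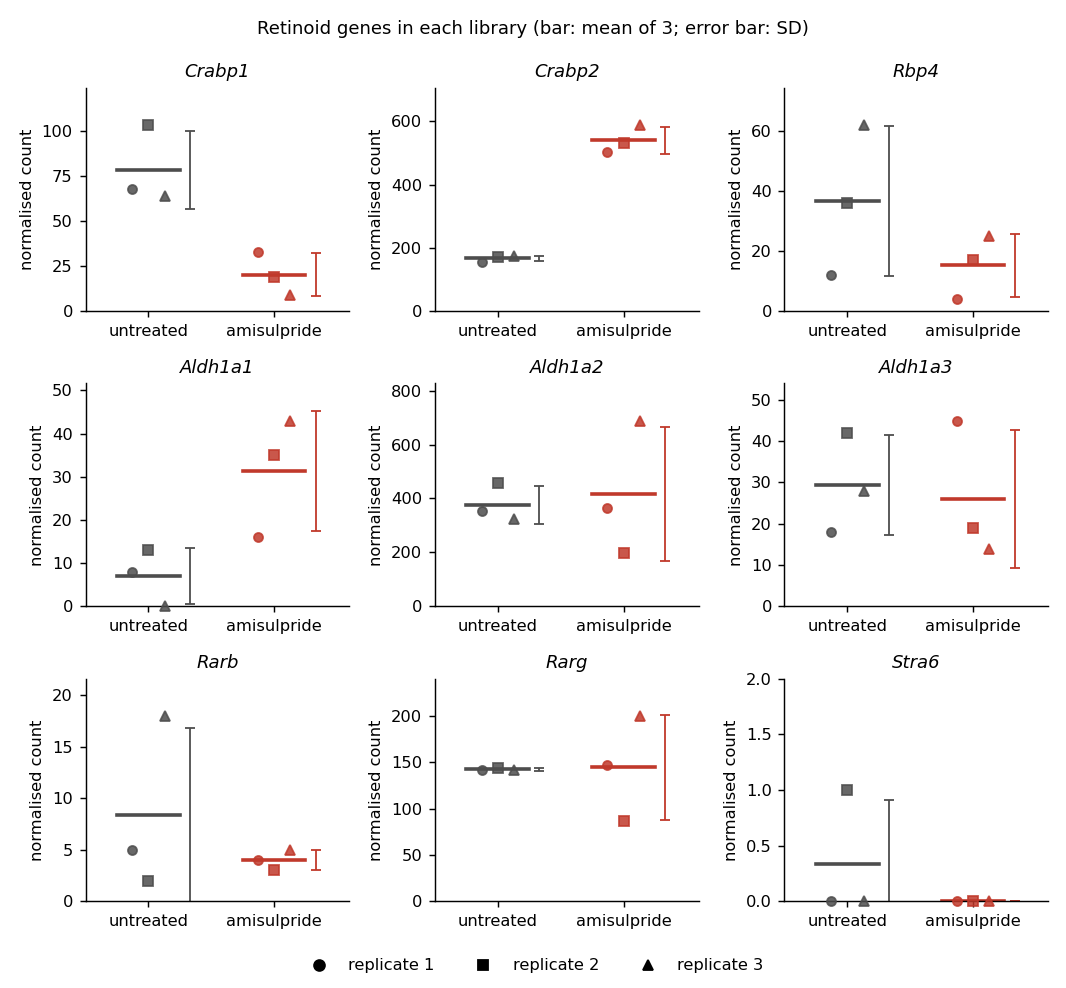
Normalised counts of the 9 retinoid genes (linear vertical axes from 0, 1 panel per gene) in the 3 untreated (grey) and 3 amisulpride (red) libraries; points are libraries, their shape is the replicate number, horizontal bars are means and vertical bars SDs. Crabp2 sits between 157 and 173 in untreated and between 504 and 587 in amisulpride SFs, while Stra6 is at 0 in 5 of 6 libraries.

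Crabp2 and Crabp1, cytosolic binding proteins for retinoic acid, stood on opposite sides of the comparison. Crabp2, which carries retinoic acid to the nucleus and to the RARs (ENSMUSG00000004885, chromosome 3, 87948666 to 87953376, plus strand), was at a normalised count of 157, 171 and 173 in untreated replicates 1, 2 and 3 and at 504, 530 and 587 in amisulpride replicates 1, 2 and 3. All 3 amisulpride libraries were far above all 3 untreated ones. The mean level was 167 ± 8.72 (SD, n = 3) against 540.3 ± 42.5 (SD, n = 3), 3.24-fold higher after amisulpride, and the fitted log2 difference was 1.69 ± 0.23 (SE). Amisulpride over untreated gave 3.21, 3.10 and 3.39 within replicate numbers 1, 2 and 3, so the ratio hardly varied between them. Ranked by the fitted log2 difference, Crabp2 was number 82 from the top of the 12614 genes.

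Inside each group Crabp2 varied little, but a gene chosen for its difference between these same libraries tends to do so. The spread is therefore given as a description. The SD of the log2 level of Crabp2 was 0.08 over the untreated and 0.11 over the amisulpride libraries. The median SD of the 500 genes nearest to it in mean level was 0.24 and 0.32. Of those genes, 6.59% had a smaller SD than Crabp2 in untreated and 10.2% in amisulpride SFs. Its fitted log2 difference stayed between 1.63 and 1.74 when each library was left out in turn, the lowest value being the one without amisulpride replicate 3.

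Crabp1, the related protein that holds retinoic acid in the cytosol and is linked to its breakdown (ENSMUSG00000032291, chromosome 9, 54764748 to 54773110, plus strand), was at 68, 103 and 64 in untreated replicates 1, 2 and 3 and at 33, 19 and 9 in amisulpride replicates 1, 2 and 3. The groups did not overlap, and the lowest level was that of amisulpride replicate 3. The mean was 78.3 ± 21.5 (SD, n = 3) in untreated and 20.3 ± 12.1 (SD, n = 3) in amisulpride SFs, 3.85-fold lower, with a fitted log2 difference of -2.03 ± 0.45 (SE). Without amisulpride replicate 3 the difference was -1.57, and over all leave-outs it ran from -2.46 to -1.57. The amisulpride libraries differed more among themselves for Crabp1 (SD of the log2 level 0.89) than the untreated ones (0.37), while the median for genes of like level was 0.45 and 0.36.

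The opposite shifts gave a ratio of Crabp2 to Crabp1 counts of 2.31, 1.66 and 2.70 in untreated replicates 1, 2 and 3 and of 15.3, 27.9 and 65.2 in amisulpride replicates 1, 2 and 3. The lowest ratio after amisulpride was 5.65 times the highest untreated one. The 65.2 divides by a Crabp1 level of only 9 in amisulpride replicate 3, the shallowest library, where 3 reads correspond to 5.37. Reads per transcript were not corrected for length or priming, so the change of this ratio between libraries can be read but not the ratio as a number of molecules. The sum of both counts went the way of Crabp2, with 225, 274 and 237 in untreated and 537, 549 and 596 in amisulpride SFs.

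**Figure D2:**
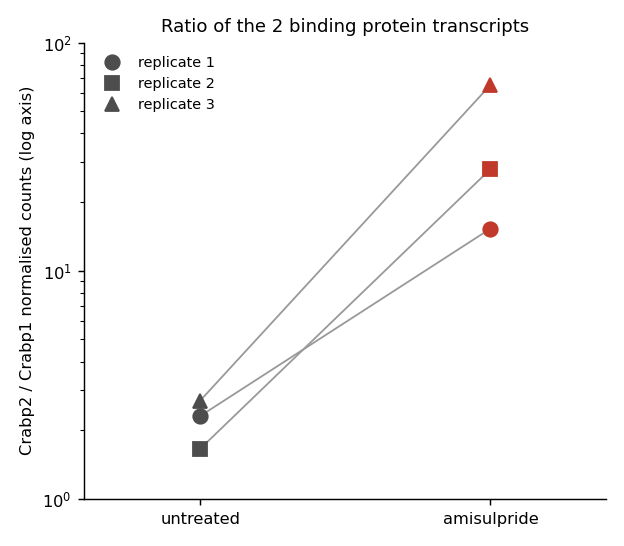
Crabp2 normalised count divided by that of Crabp1 (log vertical axis) in each library, with lines joining libraries of the same replicate number, which marks the point's shape. All 3 lines rise, from 1.66 to 2.70 in untreated up to 15.3 to 65.2 in amisulpride SFs. The 65.2 rests on a low Crabp1 level of 9 in amisulpride replicate 3.

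Rbp4, the plasma carrier of retinol (ENSMUSG00000024990, chromosome 19, 38116620 to 38125321, minus strand), was at 12, 36 and 62 in untreated replicates 1, 2 and 3 and at 4, 17 and 25 in amisulpride replicates 1, 2 and 3. The groups overlapped, yet the amisulpride library was the lower one within each replicate number, with ratios of 0.333, 0.472 and 0.403. The means were 36.7 ± 25 and 15.3 ± 10.6 (SD, n = 3 each) and the fitted log2 difference was -1.23 ± 0.70 (SE). That difference ranged from -1.86 without untreated replicate 1 to -0.53 without amisulpride replicate 1. Leaving out untreated replicate 3 gave -0.72, and leaving out amisulpride replicate 3 gave -1.72. The SD of the log2 level of Rbp4 was 1.16 in untreated SFs, larger than in 97.8% of the 500 genes of like level.

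The 3 retinal dehydrogenases, which carry out the last and irreversible step to retinoic acid, did not share a pattern. Aldh1a1 (ENSMUSG00000053279, chromosome 19, 20601961 to 20643462, plus strand) was at 8, 13 and 0 in untreated replicates 1, 2 and 3 and at 16, 35 and 43 in amisulpride replicates 1, 2 and 3. All amisulpride libraries were above all untreated ones, at levels near the bottom of the range tested. The mean was 7.00 ± 6.56 against 31.3 ± 13.9 (SD, n = 3 each), 4.48-fold higher after amisulpride. The 0 in untreated replicate 3 allows a level of up to 2.5.

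Because of that 0, the size of the Aldh1a1 difference depended on the setting. The fitted log2 difference was 2.58 ± 0.88 (SE) with a pseudocount of 1, 1.70 with a pseudocount of 5 and 2.93 with one of 0.5. Without untreated replicate 3 it was 1.42, the lowest of the leave-outs, which reached 3.32. Aldh1a1 shared 4.83% of the 30-base words near its 3′ ends with Aldh1a7, a close relative, which was at 2, 0 and 0 in untreated and 0, 0 and 2 in amisulpride SFs.

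Aldh1a2, the main retinal dehydrogenase of the embryo (ENSMUSG00000013584, chromosome 9, 71215789 to 71296243, plus strand), was at 352, 457 and 322 in untreated replicates 1, 2 and 3 and at 365, 199 and 689 in amisulpride replicates 1, 2 and 3. The amisulpride libraries spanned both the lowest and the highest level of all 6. The means were 377 ± 70.9 and 418 ± 249 (SD, n = 3 each), and the fitted log2 difference of -0.02 ± 0.39 (SE) was smaller than its error. It was -0.47 without amisulpride replicate 3 and 0.43 without amisulpride replicate 2. The SD of the log2 level was 0.26 in untreated and 0.89 in amisulpride SFs, where 93.6% of genes of like level had a smaller one.

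Aldh1a3 (ENSMUSG00000015134, chromosome 7, 66390890 to 66427517, minus strand) was at 18, 42 and 28 in untreated replicates 1, 2 and 3 and at 45, 19 and 14 in amisulpride replicates 1, 2 and 3. The groups overlapped, and the ratio within replicate numbers was 2.5, 0.452 and 0.50, so its direction differed between them. The means were 29.3 ± 12.1 and 26.0 ± 16.6 (SD, n = 3 each), with a fitted log2 difference of -0.26 ± 0.49 (SE) that ranged from -0.73 without amisulpride replicate 1 to 0.08 without amisulpride replicate 3. Some 4.72% of the words near its 3′ ends occur in other genes as well. The summed count of the 3 dehydrogenases was 378, 512 and 350 in untreated and 426, 253 and 746 in amisulpride SFs, again overlapping.

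Of the receptors, Rarg (ENSMUSG00000001288, chromosome 15, 102234938 to 102257517, minus strand), the RAR known from skin and cartilage, was at 141, 144 and 142 in untreated replicates 1, 2 and 3 and at 147, 87 and 200 in amisulpride replicates 1, 2 and 3. The untreated libraries were nearly equal, and the amisulpride libraries lay on both sides of them. The means were 142 ± 1.53 and 145 ± 56.5 (SD, n = 3 each), and the fitted log2 difference was -0.06 ± 0.31 (SE). It was -0.33 without amisulpride replicate 3 and 0.27 without amisulpride replicate 2. The SD of the log2 level was 0.02 in untreated SFs, where 0.200% of the 500 genes of like level had a smaller one, and 0.60 in amisulpride SFs.

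For Rarg and Aldh1a2 alike, amisulpride replicate 2 was the lowest and amisulpride replicate 3 the highest of the 6 libraries. Both genes thus had group means close to each other beside a wide spread among the amisulpride cultures.

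Rarb (ENSMUSG00000017491, chromosome 14, 16430842 to 16575472, minus strand), the RAR whose own promoter carries the DR5 shown above, was at 5, 2 and 18 in untreated replicates 1, 2 and 3 and at 4, 3 and 5 in amisulpride replicates 1, 2 and 3. In 3 of the 6 libraries it was at or under the level of 3 reads, and only untreated replicate 3 reached 10. A difference was not detectable at this depth, with means of 8.33 ± 8.50 and 4.0 ± 1.0 (SD, n = 3 each). Its exons overlap those of Top2b and Gm48162 on the opposite strand, and whether the counting used strand is not given in the sources used here.

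Stra6, the membrane receptor that takes up retinol from Rbp4 (ENSMUSG00000032327, chromosome 9, 58063788 to 58153996, plus strand), was at 0, 1 and 0 in untreated and at 0 in all 3 amisulpride libraries. All 6 values were at or under the level of 3 reads, so neither its presence nor a difference could be shown.

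**Figure D3:**
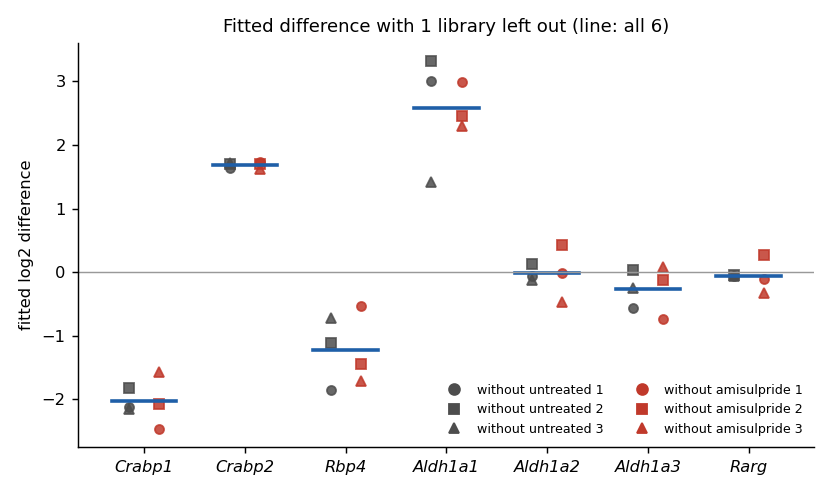
Fitted log2 difference, amisulpride minus untreated (linear vertical axis), of the 7 retinoid genes in the fit; blue lines use all 6 libraries, and each point leaves out the library given by its shape and colour. Crabp2 keeps between 1.63 and 1.74, Aldh1a1 goes down to 1.42 without untreated replicate 3, and Aldh1a2, Aldh1a3 and Rarg have points on both sides of 0.

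The other genes of the retinoid chain were taken from 5 lists, which cover carriers and uptake, storage and release, exchange between retinol and retinal, clearance of retinoic acid, and receptors with their coregulators. Of the 54 listed genes counted here, 31 passed the filter and 11 were at 0 in every library. The thresholds of the study were passed by 5.70% of all genes (2.69% higher and 3.01% lower). Of the 31, 3 were higher and 0 lower after amisulpride by these thresholds, 9.68% in all. The median fitted log2 difference was 0.18, beside 0.00 over all genes. None of the 31 had an adjusted p under 0.05 in limma without a block, beside 0.285% of all genes (0.0951% higher and 0.190% lower). An unadjusted p under 0.05 was found for 5 of the 31 and for 10.9% of all genes. With the replicate number as a block, Dhrs3 and Dhrs9 had an adjusted p under 0.05, among 263 genes in place of 36. Without untreated replicate 3 the lower genes by the study thresholds numbered 3 instead of 0 (Cyp26b1, Lpl and Scarb1). They numbered 2 without amisulpride replicate 1 (Cyp26b1 and Rdh13) and 1 without amisulpride replicate 2 (Scarb1).

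**Figure D4:**
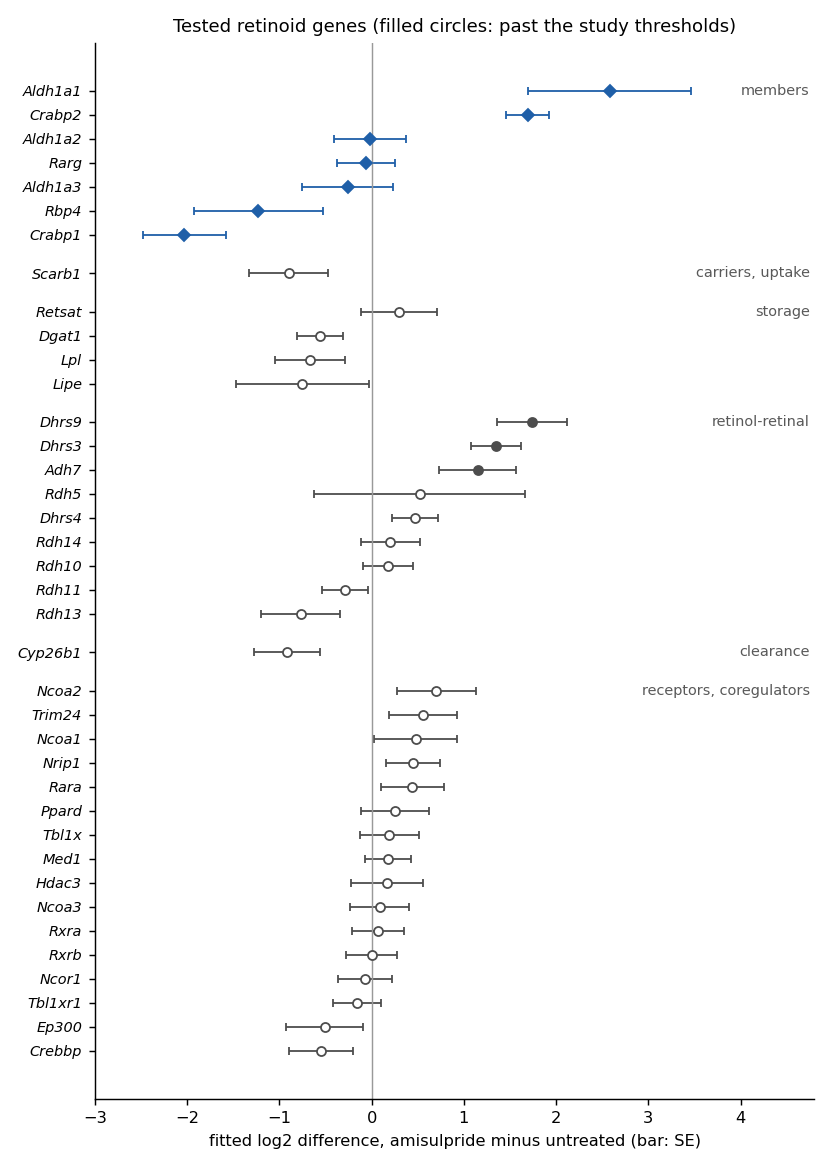
Fitted log2 difference, amisulpride minus untreated (horizontal axis, bars are SE), of the 7 members in the fit (blue diamonds) and 31 other retinoid genes (grey circles), grouped by role; filled circles pass the study thresholds. Most receptors and coregulators lie within 0.5 of 0, whereas Dhrs9, Dhrs3 and Adh7 stand above 1.

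The genes that passed upwards all belonged to the exchange between retinol and retinal, the step ahead of the Aldh1a enzymes. Of the 20 genes of that list 9 were tested, 3 were higher, none was lower, and the median log2 difference was 0.47. Dhrs3, which reduces retinal back to retinol, was at 145, 154 and 170 in untreated and 372, 307 and 555 in amisulpride SFs, with no overlap. The log2 difference of Dhrs3 was 1.35 ± 0.27 (SE), and 1.11 without amisulpride replicate 3. Its adjusted p was 0.0682 by limma and 0.0103 with the replicate number as a block. Dhrs9, which oxidises retinol to retinal, was at 42, 64 and 39 in untreated and 185, 91 and 243 in amisulpride SFs, again with no overlap. The log2 difference of Dhrs9 was 1.74 ± 0.38 (SE), and 1.44 without amisulpride replicate 3. Its adjusted p was 0.0829 by limma and 0.0150 with the block.

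Adh7, an alcohol dehydrogenase that also accepts retinol, was at 30, 65 and 62 in untreated and 104, 67 and 195 in amisulpride SFs. The amisulpride minimum of 67 lay just above the untreated maximum of 65. The log2 difference was 1.15 ± 0.42 (SE; adjusted p 0.333, limma, and 0.105 with the replicate number as a block). It fell below the study thresholds, to 0.74, without amisulpride replicate 3 and, to 0.79, without untreated replicate 1. The exons of Adh7 overlap 0610031O16Rik on the opposite strand.

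Of the 8 carrier and uptake genes counted, 1 was tested, Scarb1, a scavenger receptor that takes up carotenoids. It was at 58, 35 and 23 in untreated and 19, 25 and 14 in amisulpride SFs, so the groups overlapped. The log2 difference was -0.90 ± 0.43 (SE; adjusted p 0.485, limma, and 0.303 with the replicate number as a block), short of the study thresholds.

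Of the 3 clearance genes only Cyp26b1, a hydroxylase that inactivates retinoic acid, was tested, while Cyp26a1, whose promoter is shown above, and Cyp26c1 were at 0 in every library. Cyp26b1 was at 941, 988 and 547 in untreated replicates 1, 2 and 3 and at 652, 452 and 252 in amisulpride replicates 1, 2 and 3. The groups overlapped, and the amisulpride library was lower within each replicate number (ratios 0.693, 0.457 and 0.461). The log2 difference was -0.92 ± 0.36 (SE; adjusted p 0.363, limma, and 0.0698 with the replicate number as a block), short of the study thresholds. It passed them when untreated replicate 3 (-1.20) or amisulpride replicate 1 (-1.24) was left out. With amisulpride replicate 3 left out it was -0.56.

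**Figure D5:**
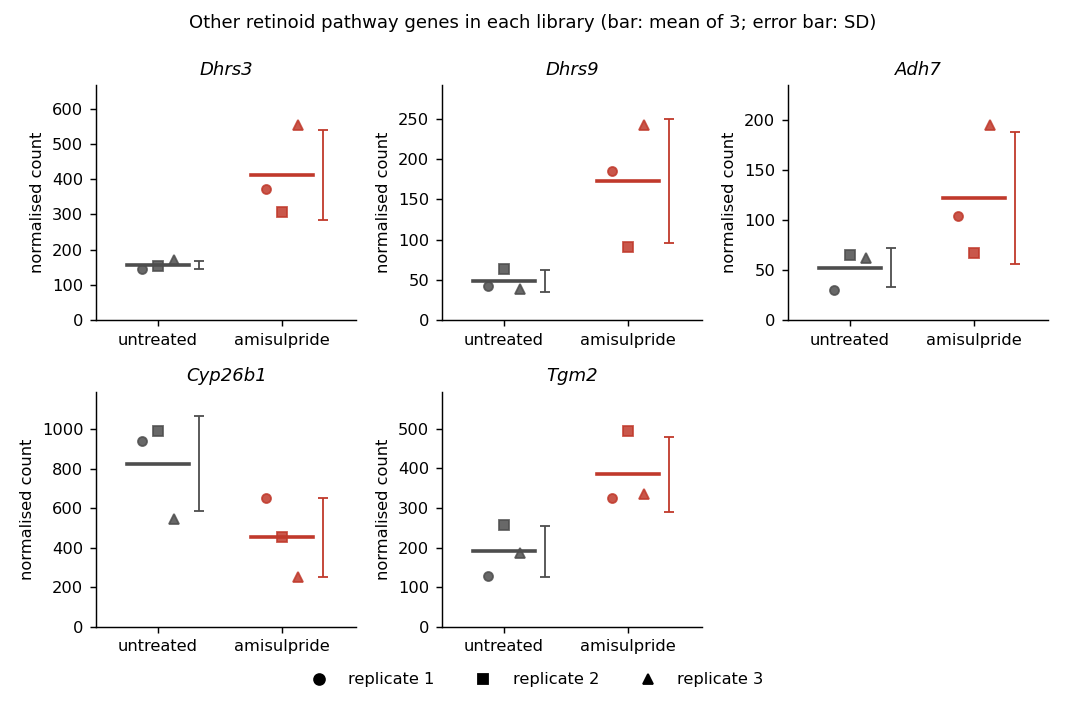
Normalised counts of 5 other genes of retinoid metabolism and response (linear vertical axes from 0) in untreated (grey) and amisulpride (red) libraries, with means and SDs as bars. Dhrs3 lies between 145 and 170 in untreated and between 307 and 555 in amisulpride SFs, and Cyp26b1 is lowest, at 252, in amisulpride replicate 3.

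None of the 4 tested storage and release genes (6 listed) and none of the 16 tested receptors and coregulators (17 counted) passed the study thresholds. The storage list had a median of -0.62, with 1 gene, Dgat1, at an unadjusted p under 0.05 (limma). Lpl, a lipase, was the one with the highest mean (2149, 1138 and 761 against 972, 517 and 911, with overlap). Its log2 difference was -0.67 ± 0.38 (SE). Dgat1, an acyltransferase that can esterify retinol, was at 356, 520 and 497 in untreated and 306, 273 and 344 in amisulpride SFs, without overlap. Dgat1 differed by -0.56 ± 0.25 (SE), and Retsat, a retinol saturase, by 0.30 ± 0.41 (SE). The receptor list had a median of 0.18, with 0 genes at an unadjusted p under 0.05 (limma). Among its genes with high means were the corepressor subunit Tbl1xr1, at -0.16 ± 0.26 (SE), and the Mediator subunit Med1, at 0.18 ± 0.25 (SE). These lists rest on few libraries, and a missed threshold does not show that the levels were equal.

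Genes known to be induced by retinoic acid did not move in one direction. Of 21 listed genes counted, 5 of which stand in the lists above, 12 were tested, 2 were higher (Dhrs3 and Tgm2) and 0 lower by the study thresholds. The fitted difference was above 0 in 6 and below 0 in 6, the median was 0.06, and 5 had an unadjusted p under 0.05. These shares stand beside 5.70% and 10.9% of all genes. The counts shifted with the setting: Rarres1 and Rarres2 were lower as well with the replicate number as a block, Cyp26b1 and Rarres2 without amisulpride replicate 1, Cyp26b1 without untreated replicate 3, and Rarres2 without amisulpride replicate 2 or without the filter. Meis2, a homeobox gene, was higher as well without untreated replicate 3 or amisulpride replicate 1. Tgm2, a transglutaminase, was at 128, 258 and 185 in untreated and 325, 493 and 335 in amisulpride SFs, with no overlap. Its log2 difference was 1.04 ± 0.30 (SE). The adjusted p of Tgm2 was 0.209 by limma and 0.0429 with the replicate number as a block. The log2 difference of Tgm2 came to 0.79 without untreated replicate 1 and 0.85 without amisulpride replicate 2, both below the study thresholds. Its exons overlap those of Rprd1b and Gm20412 on the opposite strand.

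The genes around Crabp2 were compared with it, since they share its stretch of chromosome 3. Of 12 genes within 100 kb, 8 were tested and none passed the study thresholds. Hdgf, a growth factor gene 32534 bases away, was at 1688, 1591 and 1833 in untreated and 957, 827 and 880 in amisulpride SFs, lower without overlap (log2 difference -0.94 ± 0.23 SE, adjusted p 0.117, limma). Isg20l2, an exonuclease gene and the nearest of those tested at 7980 bases, differed by 0.15 ± 0.33 (SE). Mrpl24, Rrnad1, Gm3745, Nes and Gpatch4 differed by 0.44, 0.20, 0.35, 0.09 and -0.53 on the log2 scale, and Bcan, at levels of 0 to 21, by -1.82 ± 0.90 (SE).

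The 5 genes whose log2 levels followed those of Crabp2 most closely over the 6 libraries had Pearson correlations of 0.9842 to 0.9945. The libraries fall into the groups that differ in Crabp2, so the measure mostly ranks genes with a like group difference and a small spread, and it is given as a description. Ero1l, an oxidase of the endoplasmic reticulum, had r = 0.9928 and was at 625, 656 and 726 in untreated and 1751, 1850 and 1714 in amisulpride SFs. Gm7993 had the highest r, 0.9945, but 80.7% of the words near its 3′ end occur in other genes, so its count is uncertain. The potassium channel subunit Kcne4, at 19, 17 and 18 against 56, 50 and 54, had r = 0.9892. The Wnt receptor gene Fzd4 had r = 0.9891, and the zinc finger gene Zfp362 had r = 0.9842 with a smaller log2 difference of 0.79 ± 0.28 (SE).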

How the data were processed

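Per the labels and the study's methods, the authors aligned 3′ reads from an Ion Proton sequencer to mm10 with TopHat2 and Bowtie2, counted them per gene with GenomicRanges and normalised and tested them with DESeq through metaseqr; versions are not given in the sources used here. The deposited values are a score in the sense that they are no raw counts: they are normalised read counts in whole numbers. The study's methods do not describe the scaling, and 1 factor for each library was taken from the steps between low values. No count model was therefore fitted. The table also holds the authors' fold changes and p-values, which were not used, and 12 further columns of per-library values, which were not used either.

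Levels were log2-transformed with a pseudocount of 1. The 12614 genes that reached 10 in 3 or more of the 6 libraries were fitted with limma 3.58.1 in R 4.3.3 (trend, empirical Bayes, two-sided), with Benjamini-Hochberg adjustment over all of them. The code was tested on simulated data. A fold on this scale understates the change of low genes. Exact permutation of 3 libraries against 3 gives no p under 0.1 and was not used. The approximate depth was taken from the value of 1 read in each library, 0.834 to 1.79, and was least certain for untreated replicate 1. Reads without molecular identifiers are not independent molecules. Words of 30 bases from transcript 3′ ends, exon overlaps and gene names came from GENCODE M21, which has the coordinates of the table, and promoter windows from RefSeq (GRCm38.p6).

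Libraries with the same replicate number deviated together from their group means (correlations 0.23, 0.24 and 0.20, against -0.15 to -0.08 between different numbers), so the numbers were taken to pair the samples. The main fit has no block. The fit with the number as a block is given where it changes a call of a gene of the lists, and for each gene of the lists whose adjusted p is printed. The genes named are the 9 members, the listed genes past a threshold or else up to 3 with the highest means in a list (2 for the receptors), the tested genes within 100 kb of Crabp2 and the 5 most correlated with it. Fabp4, Rarres1, Rarres2, Meis2, Rdh13, Aldh1b1 and the myeloid markers Adgre1, Aif1 and Cd68 fall outside this rule and were named after their values were seen. The counts of the lists leave out 2 listed genes, which are not reported here, while the fit across all genes includes every gene. The members and the lists were chosen with earlier results of these data known. The alternatives were other pseudocounts (5 and 0.5), no filter, quantile and median-of-ratios scaling, library weights, the block, and each library left out.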

Additional observations from a re-analysis of the deposited data

How the results depend on the processing

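Over all genes, 36 had an adjusted p under 0.05, and this count moved to 57 with a pseudocount of 5, 57 without a filter, 66 after quantile normalisation, 195 with library weights, 263 with the replicate number as a block, and between 0 and 120 when 1 library was left out. Leaving out amisulpride replicates 1, 2 and 3 gave 17, 6 and 120, and leaving out untreated replicates 1, 2 and 3 gave 1, 0 and 0. The 719 genes past the study thresholds became 1313 without a filter, with 563 to 1000 in the leave-outs, 1000 being the count without amisulpride replicate 1. Of the retinoid genes outside the members, 3 passed the study thresholds (2 to 6 in the leave-outs, 6 without untreated replicate 3 and 5 without amisulpride replicate 1), 3 of them higher (2 to 3) and 0 lower (0 to 3). None of these had an adjusted p under 0.05 in the fit reported (limma), 1 after quantile normalisation (Dhrs3), 2 with library weights and 2 with the replicate block (Dhrs3 and Dhrs9 in both), and 0 in the leave-outs. The block also brought Tgm2 and Aldh16a1 under 0.05 and Rarres1 and Rarres2 past the study thresholds. It changed no other call of a listed gene outside the members and the cell type markers. Calls of members under the block are not given, since the members were chosen with this contrast known. Of the 7 members tested, 2 had a fitted difference above 0, and 2 to 4 in the leave-outs, 4 without untreated replicate 2 or without amisulpride replicate 2. Single-gene values were compared under the alternatives for the 7 members tested and the 6 other listed genes past the study thresholds. Of these values, 162 kept the direction and side of the thresholds of a listed gene or moved a member by less than its replicate spread. The other 7 fell short of the study thresholds (Adh7 3 times, Tgm2 and Fabp7 2 times each). A member with a wide spread could move far and still be among the 162. Aldh1a1 did so, from 2.58 to 1.42 without untreated replicate 3. Listed genes that passed the thresholds only under an alternative, such as Cyp26b1 and Scarb1, are not among these values. The small differences of Aldh1a2, Aldh1a3 and Rarg changed sign in the leave-outs, and no called gene did. Scaling moved the median of all genes by no more than 0.02. The cause of these shifts was not tested. Depth limits Rarb, Stra6 and the untreated level of Aldh1a1.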

Other observations

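Crabp1 and Crabp2 belong to the family of intracellular lipid-binding proteins. Of 12 relatives counted, 3 were tested, all 3 with a fitted difference below 0 (median -0.82), and 1, Fabp7, passed the study thresholds, against 5.70% of all genes. Fabp7, a fatty acid binding protein known from brain, was at 76, 76 and 21 in untreated and 13, 20 and 18 in amisulpride SFs, with untreated replicate 3 next to the amisulpride libraries. Its log2 difference was -1.52 ± 0.50 (SE; adjusted p 0.263, limma, and 0.0856 with the replicate number as a block). The difference fell short of the study thresholds, at -1.21, without untreated replicate 1 or 2. Fabp4, the fatty acid binding protein of adipocytes and macrophages, was at 303, 309 and 324 in untreated and 128, 187 and 229 in amisulpride SFs, without overlap. It was short of those thresholds, with a log2 difference of -0.82 ± 0.27 (SE), and passed them at -1.01 without amisulpride replicate 3. Its adjusted p was 0.261 by limma and 0.128 with the replicate number as a block. Beside Fabp4, the summed adipocyte markers were at 3 to 5 in untreated and 10 to 25 in amisulpride SFs, with none of 6 tested and 3 at 0 throughout. The myeloid sums overlapped between the groups. Of the 10 myeloid markers, Cd14 and Csf1r were lower after amisulpride by log2 differences of -1.74 and -1.01. Csf1r missed the study thresholds in most leave-outs, as given above. Adgre1, Aif1 and Cd68 differed by 0.83, 0.70 and 0.31, short of the study thresholds. The part of these cells in these values was not tested.

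Of 17 other aldehyde dehydrogenases listed, 13 were tested (median 0.21), and 1, Aldh16a1, passed the study thresholds, 7.69% against 5.70% of all genes. It was at 79, 87 and 103 in untreated and 25, 40 and 48 in amisulpride SFs, lower in each replicate number, with a log2 difference of -1.27 ± 0.32 (SE; adjusted p 0.144, limma, and 0.0431 with the replicate number as a block). Its exons overlap those of Pih1d1 on the opposite strand. Aldh1b1, at 14, 12 and 13 in untreated and 52, 28 and 9 in amisulpride SFs, had a log2 difference of 0.83 ± 0.58 (SE), and passed the study thresholds at 1.49 without amisulpride replicate 3 and at 1.23 with library weights.

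Rarres2, which encodes the secreted protein chemerin and is named for its response to retinoids, was at 135, 133 and 122 in untreated and at 97 and 107 in amisulpride replicates 1 and 2, but at 7 in amisulpride replicate 3, the library that stood apart. Its log2 difference was -1.58 ± 0.78 (SE; adjusted p 0.498, limma, and 0.125 with the replicate number as a block, where it passed the study thresholds). Without amisulpride replicate 3 the difference was -0.35. Its exons overlap Lrrc61 on the opposite strand.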
